A study of Mus musculus with 12 samples.

Results

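The heat shock proteins described here are 10 genes of the cytosol and the mitochondrion, Hspa1a, Hspa1b, Hspa8, Hsph1, Hsp90aa1, Dnajb1, Bag3, Hspb1, Hspd1 and Hspe1. They were taken by symbol from the 55385 genes of the count tables, and each symbol matched 1 row in both tables. All 10 passed the filter on low counts in females and in males. RNA was sequenced from satellite cells, which are the muscle stem cells, of the hindlimb of C57BL/6J mice, in 12 libraries of 1 animal each. The labels of all 12 give the cells as freshly isolated. The groups were 3 females labelled KO for Keap1, 3 females labelled Hetz, 3 males labelled KO and 3 males labelled Hetz. Hetz is read here as heterozygous, so that no group is wild type, and neither the age of the animals nor the promoter of any Cre is given in the labels. KEAP1 is the adaptor that leads the transcription factor NRF2 to degradation, and the question was what its loss does to satellite cells of each sex.

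Heat shock proteins are chaperones that bind unfolded or client proteins. In the cytosol, HSP70 proteins work in a cycle with J-domain partners that bring substrates and stimulate ATP hydrolysis, with nucleotide exchange factors that release them, and with HSP90 and the small heat shock proteins, which act after and before them. The transcription factor HSF1 raises many of these genes in proteotoxic stress by binding repeats of the unit nGAAn, and enzymatic dissociation of muscle is itself known to induce Hspa1a, Hspa1b and Dnajb1 together with immediate early genes.

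The promoters are shown because the members that differed between genotypes and those that did not can be read there against the nGAAn repeat. RefSeq promoter sequences (GRCm38.p6) were given for 8 of the 10 members, all but Hspa8 and Hsp90aa1. The 5′ to 3′ stretch of 130 bases that ends 21 bases before the start site is printed for Hspa1a and Dnajb1, which were lower in KO-labelled females, and for Hspb1 and Hspe1, which did not pass the test. Capitals mark matches of GAANNTTC and TTCNNGAA, which are pairs of nGAAn units and read the same on both strands.
Hspa1a, chr17:34972177-34972306, minus strand: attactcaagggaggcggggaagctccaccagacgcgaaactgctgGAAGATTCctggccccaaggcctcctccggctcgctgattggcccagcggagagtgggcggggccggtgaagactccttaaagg
Dnajb1, chr8:83608025-83608154, plus strand: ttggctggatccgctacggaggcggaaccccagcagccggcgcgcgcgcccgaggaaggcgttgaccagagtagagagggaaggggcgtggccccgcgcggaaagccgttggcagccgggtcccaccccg
Hspb1, chr5:135887769-135887898, plus strand: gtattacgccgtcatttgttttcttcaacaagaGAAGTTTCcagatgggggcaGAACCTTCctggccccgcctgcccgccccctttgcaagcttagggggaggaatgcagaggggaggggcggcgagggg
Hspe1, chr1:55087998-55088127, plus strand: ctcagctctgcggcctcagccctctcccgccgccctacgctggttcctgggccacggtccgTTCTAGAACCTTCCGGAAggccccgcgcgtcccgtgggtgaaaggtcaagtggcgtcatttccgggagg

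Hspa1b, whose stretch at chr17:34959259-34959388 (minus strand) is identical to that of Hspa1a, differed from it by 3 of the 250 bases before the start. In that 250-base window, GAANNTTC was present in 5 of the 8 members (Hspa1a, Hspa1b, Hspb1, Hspd1 and Hspe1), against 7.73% of all 27025 genes in the table. TTCNNGAA was present in 3 of 8 (Hsph1, Hspd1 and Hspe1), against 8.11% of genes. A run of 3 units, in which a GAANNTTC pair and a TTCNNGAA pair share their middle unit, on either strand, overlaps both pairs and was present in 2 of 8, Hspd1 and Hspe1, against 0.514% of genes. Those 2 genes, which encode the mitochondrial chaperonin and its lid, lie head to head with overlapping exons. The match is the same stretch of DNA read from each side. A gene was counted if any of its start sites held the motif. For Hspd1, all matches lay before the start site at chr1:55087932, and the window before its other start site, at chr1:55088243, held none of the motifs. TGACNNNGC, a reduced form of the antioxidant response element through which NRF2 acts, was present on either strand in 2 of 8 (Dnajb1 and Hsph1), against 11.5% of genes. Bag3 held none of the 4 motifs in this window. Among the promoters read, the called genes Hspa1a and Hspa1b shared the GAANNTTC pair with Hspb1, Hspd1 and Hspe1, which were not called, and the called gene Dnajb1 had no such pair in this window. Only exact matches in the 250 bases before a start were searched, so inexact units and sites elsewhere were not read. The part of these motifs in the levels was not tested.

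Across the series, total counts ran from 13042039 to 19273245 per library, and the 10 members took 0.840 to 1.02% of the counts in KO-labelled females, 1.08 to 1.12% in Hetz-labelled females, 1.18 to 1.57% in KO-labelled males and 1.23 to 1.60% in Hetz-labelled males. The targeted gene, Keap1, was not called lower in the libraries labelled KO in either sex, which bears on every direction given here. In females all 3 KO-labelled libraries were above the Hetz-labelled ones (log2 fold change 0.54, edgeR adjusted p = 0.186). In males the groups overlapped (log2 fold change -0.087, edgeR adjusted p = 0.936). Keap1 had 11.9, 12.95 and 11.02 CPM in KO-labelled females, against 9.56, 7.18 and 7.95 CPM in Hetz-labelled females, and 6.30, 7.74 and 7.70 CPM in KO-labelled males, against 9.78, 5.33 and 8.08 CPM in Hetz-labelled males. A count over all exons cannot tell whether a deleted exon is still read. The NRF2 target Nqo1 stood apart in the labelled direction in both sexes, at 82.8 to 110 CPM in KO-labelled females, against 3.66 to 5.75 CPM in Hetz-labelled females, and at 31.2 to 36.7 CPM in KO-labelled males, against 2.08 to 4.42 CPM in Hetz-labelled males. Of 16 listed NRF2 targets, Nqo1 among them, edgeR called 14 higher in females, against 1.29% of all genes. It called 7 higher in males, against 0.704%, with 13 log2 fold changes above 0 and 3 below. The list summed to 3142 to 4880 CPM in KO-labelled males, against 2792 to 5259 CPM in Hetz-labelled males, which overlapped. The female minus the male change was above 0 for all 16 and called for 0. At an unadjusted edgeR p under 0.05 there were 12, against 12.4% of genes. All 10 satellite cell markers examined, Pax7, Myf5 and Myod1 among them, had counts in every group. CPM is the count of a gene scaled to a common library size, here with TMM factors, which correct for composition, over all 12 libraries.

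In KO-labelled females, 3 of the 10 members fell and none rose relative to Hetz-labelled females, against 2.27% of all 14036 genes tested that were called and 0.983% that were called lower. The 3 were the inducible HSP70 genes Hspa1a and Hspa1b and the J-domain gene Dnajb1, whose product is the main partner of inducible HSP70. The constitutive HSP70, the HSP110, the HSP90, the exchange factor, the small heat shock protein and both mitochondrial members did not pass the threshold of an adjusted p of 0.05. The median log2 fold change was -0.20 over the members, against 0.0044 over all genes tested. Calls are from edgeR's quasi-likelihood test with Benjamini-Hochberg adjustment over all genes, and p-values measure the spread between animals. In bulk RNA, fewer cells of a type and less RNA per cell cannot be told apart.

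Hspa1a, which encodes the stress-inducible cytosolic HSP70, had 280.1, 152 and 133 CPM in KO-labelled females, against 375, 548 and 497 CPM in Hetz-labelled females. Every KO-labelled female was below every Hetz-labelled one. The difference was 2.52-fold (log2 fold change -1.33 ± 0.264 SE, 95% interval -1.91 to -0.75, edgeR adjusted p = 0.0253). In males Hspa1a had 732, 459 and 1440.3 CPM in KO-labelled animals, against 834, 908 and 555 CPM in Hetz-labelled animals. The male groups overlapped, and the KO-labelled animals held both the lowest and the highest value. The male log2 fold change was 0.20 ± 0.420 SE, with an interval of -0.81 to 1.20 (edgeR adjusted p = 0.908).

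Hspa1b, the neighbouring copy of the same protein, had 6.39, 4.92 and 3.32 CPM in KO-labelled females, against 8.06, 11.7 and 14.1 CPM in Hetz-labelled females. Its groups did not overlap either, and it fell 2.30-fold (log2 fold change -1.20 ± 0.283 SE, edgeR adjusted p = 0.0468). In males it had 17.0, 13.8 and 35.4 CPM in KO-labelled animals, against 17.7, 17.9 and 11.01 CPM in Hetz-labelled animals, and the groups overlapped (log2 fold change 0.51 ± 0.333 SE, edgeR adjusted p = 0.611). The 2 copies cannot be read as independent genes. In 50-base windows of the transcripts, 58.8% of those of Hspa1a were also in Hspa1b and 62.3% of those of Hspa1b were also in Hspa1a, and the counting left out fragments with more than 1 place of alignment. The counts of Hspa1b were 1.98 to 3.23% of those of Hspa1a in each of the 12 libraries. With the counts of both summed into 1 gene, 2 of 9 members were called in females, the sum and Dnajb1. Of the exonic bases of Hspa1a, 19% are also covered by Gm20481 on the opposite strand, and counting used no strand, so its level is uncertain for that reason too.

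Dnajb1, a J-domain cochaperone that delivers substrates to HSP70, had 312, 301 and 298 CPM in KO-labelled females, against 424, 517 and 602 CPM in Hetz-labelled females. The KO-labelled females lay close together and below all Hetz-labelled ones, with a mean of 304 ± 7.16 CPM, against 514 ± 88.7 CPM (SD, n = 3 each). The fall was 1.69-fold (log2 fold change -0.76 ± 0.153 SE, edgeR adjusted p = 0.0210). Males had 1043.9, 730 and 1168 CPM in KO-labelled animals, against 956, 1091 and 621 CPM in Hetz-labelled animals. These overlapped, with a log2 fold change of 0.14 ± 0.219 SE (edgeR adjusted p = 0.857). Dnajb1 is the called member least affected by shared sequence, with 0.441% of its windows in other genes.

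These 3 calls rest on few animals. Without KO178, KO188 or Hetz181, 0 members were called in females by edgeR. Without KO166 only Hspa1a was called, and a fit of all 12 libraries called Dnajb1 only. Hspa1a, Hspa1b and Dnajb1 kept a log2 fold change below 0 under all alternatives run, from -1.73 to -1.14 for Hspa1a, -1.45 to -0.999 for Hspa1b and -0.88 to -0.64 for Dnajb1.

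**Figure D1:**
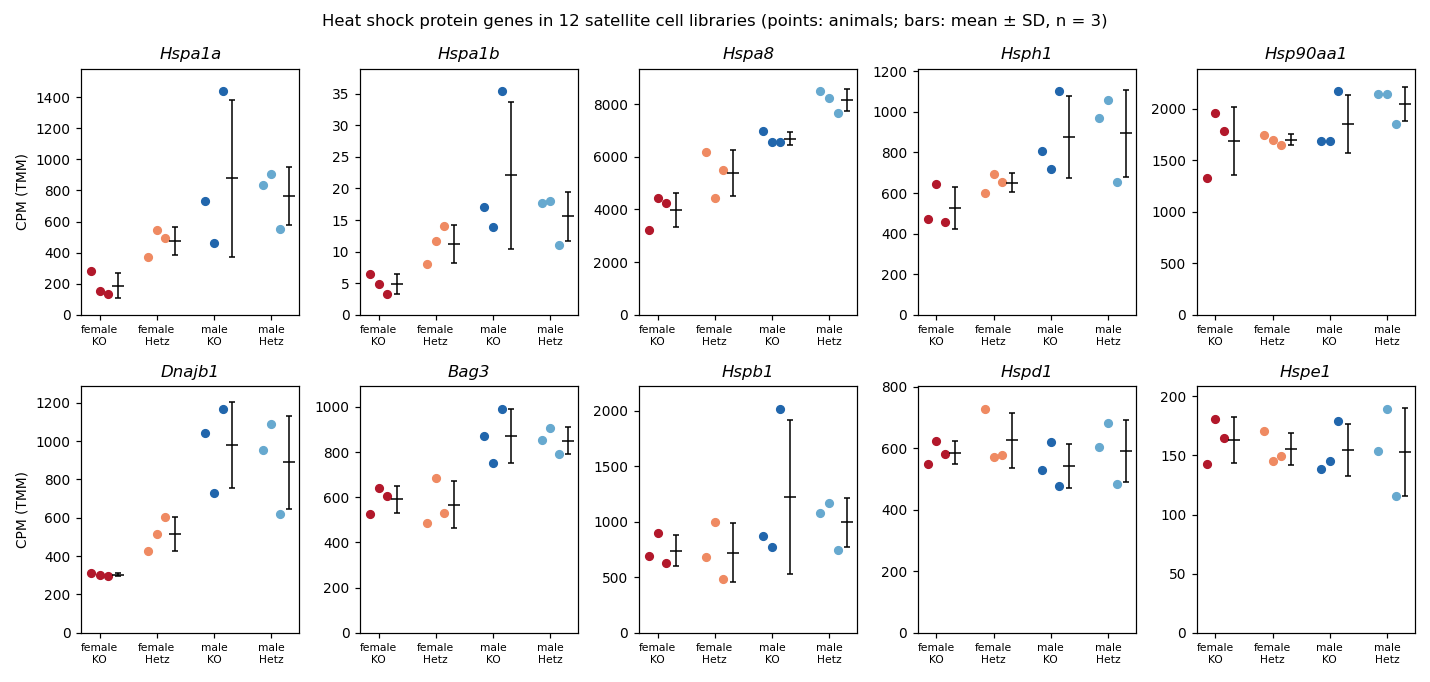
TMM-scaled CPM of the 10 heat shock protein genes (y axes, linear, from 0) in the 12 libraries, by labelled group (x axes); points are animals, bars are mean ± SD of 3 animals. In Hspa1a, Hspa1b, Hspa8 and Dnajb1 the KO-labelled females lie below all Hetz-labelled females, and the male KO-labelled animal KO255 is the highest of the 12 in Hspa1a, Hspa1b, Hspb1, Dnajb1, Hsph1, Hsp90aa1 and Bag3.

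Hspa8 encodes the constitutive cytosolic HSP70 (HSC70), which folds new proteins and serves clathrin uncoating and chaperone-mediated autophagy. It had 3226, 4439 and 4246 CPM in KO-labelled females, against 6199, 4453 and 5486 CPM in Hetz-labelled females. It had 6973, 6561 and 6543 CPM in KO-labelled males, against 8499, 8245 and 7678 CPM in Hetz-labelled males. The groups did not overlap in either sex, although the gap in females was narrow, between KO178 and Hetz165. It passed the test in neither sex, with log2 fold changes of -0.44 ± 0.180 SE in females (edgeR adjusted p = 0.230) and -0.28 ± 0.134 SE in males (edgeR adjusted p = 0.425).

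Counted by libraries that do not overlap, 4 of 10 members were lower in KO-labelled females (Hspa1a, Hspa1b, Hspa8 and Dnajb1), against 10.4% of all genes tested, and 1 of 10 was lower in KO-labelled males (Hspa8), against 7.76%. Averaged over the sexes in the fit of all 12 libraries, Hspa8 had a log2 fold change of -0.36 ± 0.111 SE (unadjusted p = 0.00483, edgeR adjusted p = 0.0920). An exact two-sided permutation of its log2 CPM with labels exchanged within each sex gave p = 0.005, the smallest that the 400 arrangements allow, before any adjustment for the 10 members tested, of which the other 9 gave 0.125 to 0.69. Within a sex, 3 animals against 3 allow no exact permutation p below 0.1. Of the windows of Hspa8, 52.7% are also in other genes, mostly processed copies, so its level is uncertain too.

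Hsph1 encodes HSP110, an exchange factor for HSP70. It had 472, 644 and 459 CPM in KO-labelled females, against 602, 696 and 653 CPM in Hetz-labelled females, which overlapped (log2 fold change -0.31 ± 0.161 SE, edgeR adjusted p = 0.337). In males it had 807, 720 and 1103 CPM in KO-labelled animals, against 969, 1059 and 654 CPM in Hetz-labelled animals (log2 fold change -0.03 ± 0.199 SE, edgeR adjusted p = 0.977). Hsph1 shared none of its windows with another gene.

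Hsp90aa1, the stress-responsive cytosolic HSP90, had 1324, 1962 and 1789 CPM in KO-labelled females, against 1751, 1702 and 1650 CPM in Hetz-labelled females. The KO-labelled females held both the lowest and the highest value, and the log2 fold change was -0.01 with an interval of -0.37 to 0.35. In males the values were 1688, 1686 and 2175 CPM in KO-labelled animals, against 2144, 2143 and 1858 CPM in Hetz-labelled animals, with a log2 fold change of -0.15 and an interval of -0.46 to 0.17. Of the windows of Hsp90aa1, 58.5% are also in other genes, so its level is uncertain.

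Bag3 binds HSP70 and small heat shock proteins and directs clients to selective autophagy, in muscle above all those at the Z-disc. It had 524, 642 and 606 CPM in KO-labelled females, against 487, 685 and 531 CPM in Hetz-labelled females, and 873, 752 and 992 CPM in KO-labelled males, against 854, 907 and 789 CPM in Hetz-labelled males. The genotypes overlapped in both sexes. The log2 fold change was 0.06 with an interval of -0.30 to 0.41 in females and 0.04 with an interval of -0.26 to 0.34 in males.

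Hspb1, a small heat shock protein that holds unfolding proteins and binds actin filaments, had 691, 896 and 629 CPM in KO-labelled females, against 682, 1002 and 484 CPM in Hetz-labelled females. In males it had 875, 771 and 2018 CPM in KO-labelled animals, against 1074, 1165 and 747 CPM in Hetz-labelled animals. It overlapped between genotypes in both sexes, and its intervals were wide, from -0.49 to 0.55 in females (log2 fold change 0.03) and from -0.58 to 1.17 in males (log2 fold change 0.29). Of its windows, 51.6% are also in the pseudogene Hsp25-ps1.

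The mitochondrial members had the smallest ratios between group means among the 10. Hspd1, the chaperonin HSP60 of the matrix, averaged 586 ± 37.4 CPM in KO-labelled females, against 626 ± 89.0 CPM in Hetz-labelled females, and 542 ± 72.7 CPM in KO-labelled males, against 590.4 ± 101 CPM in Hetz-labelled males (SD, n = 3 each). Its partner Hspe1, the HSP10 lid, averaged 163 ± 19.4 CPM in KO-labelled females, against 155 ± 13.5 CPM in Hetz-labelled females, and 154 ± 21.8 CPM in KO-labelled males, against 153 ± 37.0 CPM in Hetz-labelled males (SD, n = 3 each). All 4 intervals of the log2 fold change held 0 and lay within -0.46 to 0.39. The highest group mean was 1.154 times the lowest for Hspd1 and 1.07 times for Hspe1, against 4.66 times for Hspa1a and 4.53 times for Hspa1b. Of the windows of Hspd1, 44.8% are also in other genes, so its level is uncertain, against 8.2% of those of Hspe1.

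In males, 0 of the 10 members were called by edgeR, against 0.861% of the 13361 genes tested (0.704% higher and 0.157% lower). No member had an unadjusted p under 0.05 there, against 12.4% of genes, and DESeq2 and limma voom also called 0. The median log2 fold change was 0.03 over the members, against 0.01 over all genes tested. Averaged over the sexes, 0 members were called by edgeR, against 3.41% of 14772 genes, with 2 at an unadjusted p under 0.05 (Hspa8 and Dnajb1), against 17.0% of genes, and 1 called by DESeq2 (Hspa8).

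**Figure D2:**
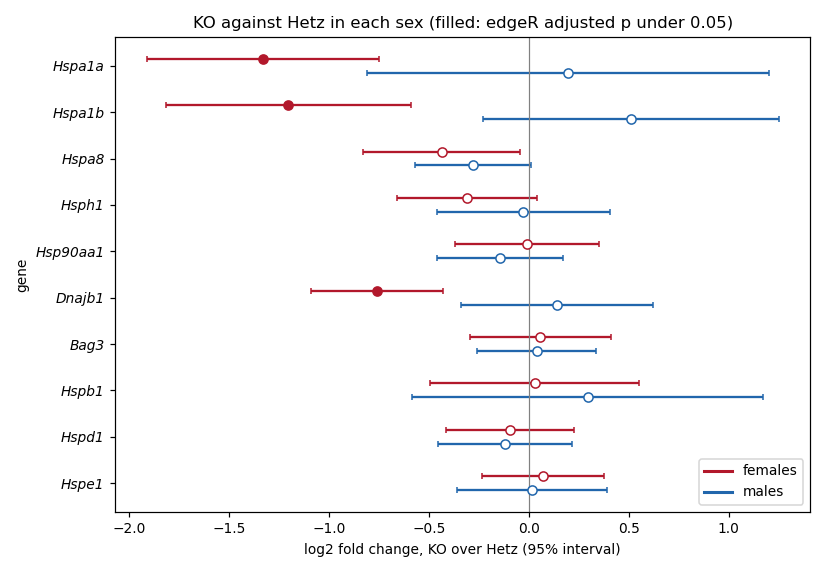
Log2 fold change of KO-labelled over Hetz-labelled libraries (x axis) with 95% intervals for each gene (y axis), in females (red) and males (blue), from edgeR fits of each sex; filled points have an adjusted p under 0.05. Hspa1a, Hspa1b and Dnajb1 are filled in females only, at -1.33, -1.20 and -0.76, and Hspa8 is left of 0 in both sexes at -0.44 and -0.28.

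That 3 members passed in females and none in males does not show that the sexes differ, so the difference was tested. For Hspa1a the female minus the male change was -1.51 ± 0.567 SE on the log2 scale (unadjusted p = 0.0221, edgeR adjusted p = 0.325). For Hspa1b the log2 difference was -1.70 ± 0.475 SE (unadjusted p = 0.00260, edgeR adjusted p = 0.186) and for Dnajb1 it was -0.89 ± 0.285 SE (unadjusted p = 0.00595, edgeR adjusted p = 0.229). By edgeR, 0 of 10 members passed, against 0.00677% of genes (1 of 14772). At an unadjusted p under 0.05 there were 3 members, against 12.4% of genes, and DESeq2 called 1, Hspa1b. For the other 7 members the difference ran from -0.27 (Hsph1) to 0.15 (Hsp90aa1).

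The male values turn on 2 libraries that stand at opposite ends. KO255 was the highest of the 3 KO-labelled males in 8 of the 10 members, all but Hspa8 and Hspd1, in which it was the lowest. Hetz249 was the lowest of the 3 Hetz-labelled males in 10 of 10. Without KO255 the male log2 fold change of Hspa1a was -0.35 and that of Hspb1 -0.27, and no member was called without either library. Within females no library took 1 end for all members, but KO166 was the highest of its group for Hspa1a, Hspa1b and Dnajb1 and the lowest for Hspa8, Hsp90aa1, Hspd1, Hspe1 and Bag3. CPM of Hspa1a as a share of that of Hspa8 was 8.68, 3.42 and 3.12% in KO-labelled females, against 6.05, 12.3 and 9.07% in Hetz-labelled females, and 10.5, 7.001 and 22.01% in KO-labelled males, against 9.81, 11.01 and 7.23% in Hetz-labelled males, which overlapped in both sexes.

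Of the 10 members, 6 were lower in female than in male KO-labelled libraries, against 20.4% of 14772 genes called in either direction and 11.1% called lower, and none was higher. They were Dnajb1 (log2 fold change -1.70, edgeR adjusted p = 4.41e-05), Hspa1b (-2.18), Hspa1a (-2.23), Hspa8 (-0.77), Hsph1 (-0.75) and Bag3 (-0.58). Between female and male Hetz-labelled libraries, 3 of 10 were lower in females, Dnajb1 (log2 fold change -0.81), Hspa8 (-0.62) and Bag3 (-0.60), against 10.2% of genes called and 5.44% called lower. The Hetz calls depended on a few libraries, with 0 members called without Hetz204 or without Hetz245 and 1 without Hetz164. The sexes came in separate tables, so sex cannot be told apart from the table or from any preparation batch. Markers of other cells and of the satellite cell and immediate early genes were called between the sexes as well, and their part was not tested. All 10 of 10 endothelial markers were called lower in females within each genotype, their summed level being 51.7 to 87.3 CPM in KO-labelled females, against 120 to 306 CPM in KO-labelled males, and 63.9 to 69.4 CPM in Hetz-labelled females, against 193 to 206 CPM in Hetz-labelled males, with none at 0. The 10 satellite cell markers summed to 8334 to 10641 CPM in KO-labelled females, against 17943 to 19463 CPM in KO-labelled males, with 6 called lower and 2 higher, and to 12355 to 13792 CPM in Hetz-labelled females, against 16418 to 20013 CPM in Hetz-labelled males, with 1 called lower and 1 higher. Of the 25 immediate early genes, 10 were called lower and 0 higher in female KO-labelled libraries, with a summed level of 15431 to 15844 CPM, against 19545 to 24626 CPM in male KO-labelled libraries. In female Hetz-labelled libraries 4 were called lower and 1 higher, with 18368 to 22128 CPM, against 21707 to 22981 CPM in male Hetz-labelled libraries, which overlapped. All 8 tested myofibre markers had a log2 fold change of female over male libraries above 0 within each genotype, with 3 called higher in female KO-labelled and 1 in female Hetz-labelled libraries. Of 10 fibro-adipogenic progenitor markers, 2 were called higher and 2 lower in female KO-labelled libraries, and 3 higher and 1 lower in female Hetz-labelled ones. They summed to 2657 to 3026 CPM in KO-labelled females, against 861 to 1404 CPM in KO-labelled males. In Hetz-labelled animals they summed to 2203 to 4573 CPM in females, against 725 to 2008 CPM in males. Pericyte, Schwann cell, tenocyte, leukocyte and red blood cell lists each held called genes within each genotype.

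The order of group means was female KO, female Hetz, male Hetz, male KO from low to high for Hspa1a, Hspa1b and Dnajb1. In each of these 3 the 2 male groups overlapped, and the female groups did not overlap each other. Female Hetz and male Hetz overlapped for Hspa1b only, and female Hetz and male KO overlapped for Hspa1a and Hspa1b. For Hspa8 the order was female KO, female Hetz, male KO, male Hetz, with no overlap between neighbours, and it was the only member for which all 4 groups were separate. Hsph1 and Bag3 had both male group means above both female ones, with overlap between the genotypes of each sex. For Hsp90aa1, Hspb1, Hspd1 and Hspe1 all neighbours in the order overlapped.

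On a scale that allows genes to be compared, CPM per kilobase of exon, Hspa8 was the most abundant member in each group mean, at 923 in KO-labelled females, 1251 in Hetz-labelled females, 1556 in KO-labelled males and 1893 in Hetz-labelled males. Hspb1 followed at 716 in KO-labelled females, 701 in Hetz-labelled females, 1184 in KO-labelled males and 965 in Hetz-labelled males. Hspa1a stood at 63.4 in KO-labelled females, against 160 in Hetz-labelled females, and at 296 in KO-labelled males, against 258 in Hetz-labelled males. Hspa1b was the lowest in each group at 1.74 to 7.88. Because reads shared with other copies were not counted, these levels understate the genes with many such windows.

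Members moved together within groups in part. Over the 12 libraries, with the mean of each of the 4 groups removed, Pearson's r of log2 CPM had a median of 0.49 over the 45 pairs and was above 0 in 35. It was highest between Hspa1a and Hspa1b (0.93), which share sequence, and next between Hspb1 and Hsph1 (0.80). The lowest value was between Hspa1a and Hspa8 (-0.45), the inducible and the constitutive HSP70. With values centred within each sex instead, which leaves the differences between genotypes in, Hsph1 followed the mean profile of the other 9 members most closely (r = 0.96). Hspd1 followed it least (r = 0.16). These libraries share preparation and depth, and r is given as a description.

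**Figure D3:**
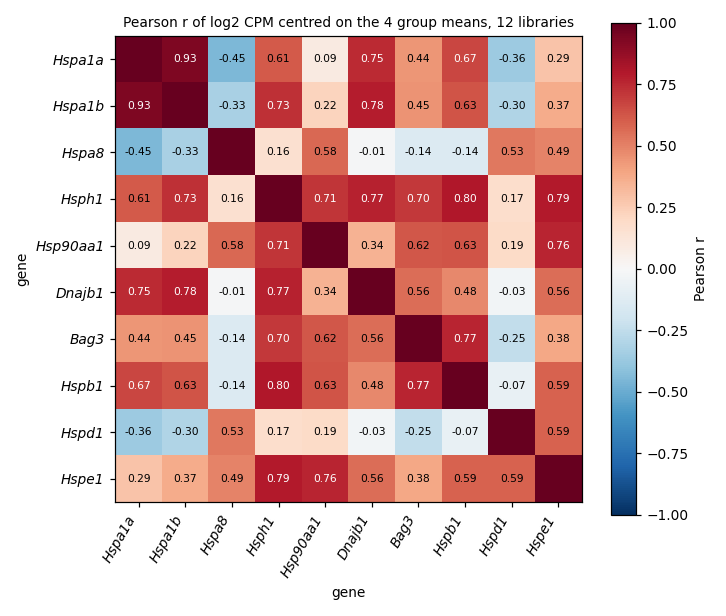
Pearson's r between members (both axes: genes; colour and printed value: r from -1 to 1) of log2 CPM centred on the 4 group means over 12 libraries. Hspa1a, Hspa1b, Dnajb1, Hsph1, Bag3 and Hspb1 have positive r with each other, while Hspa8 and Hspd1 have r at or below 0 with Hspa1a, Hspa1b, Dnajb1, Bag3 and Hspb1.

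Outside the list, the 5 genes of 7939 whose pattern was most like the mean profile of the members, with values centred within each sex over the 12 libraries, were Nr4a2 (r = 0.83), an immediate early orphan nuclear receptor, Hbegf (r = 0.83), a growth factor of the EGF family, Plscr1 (r = 0.81), a phospholipid scramblase, Rnpc3 (r = 0.81), a protein of the minor spliceosome, and Adamts9 (r = 0.80), an extracellular protease. Nr4a2 had 35.8, 51.5 and 32.8 CPM in KO-labelled females, against 46.4, 58.9 and 47.9 CPM in Hetz-labelled females, and 70.6, 50.1 and 71.3 CPM in KO-labelled males, against 64.98, 79.0 and 55.1 CPM in Hetz-labelled males. It was low in KO247 and Hetz249, as most members were.

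Among related chaperones, 1 small heat shock protein outside the list rose in each sex, Hspb8 in females and Cryab in males. Of 9 listed, 7 were tested in females and 6 in males. By edgeR 1 rose in each sex, against 1.29% of all genes called higher in females and 0.704% in males, and none fell. The log2 fold change was above 0 for all 7 and all 6, with medians of 0.46 in females and 0.76 in males, while 49.5% of all genes in females and 48.3% in males were below 0. Values ran from 0.0029 to 1.33 in females and from 0.53 to 1.69 in males. Apart from Hspb8 and Cryab, no listed gene had a group mean above 7.26 CPM. Hspb8, which forms a complex with BAG3 that feeds clients to HSP70 and autophagy, had 136, 141 and 133 CPM in KO-labelled females, against 43.0, 69.4 and 50.6 CPM in Hetz-labelled females. The groups were far apart, 2.51-fold (log2 fold change 1.33 ± 0.172 SE, edgeR adjusted p = 0.00105), and Hspb8 was called in females under all 13 alternatives run. In males Hspb8 had 135, 114 and 206 CPM in KO-labelled animals, against 107, 64.1 and 76.3 CPM in Hetz-labelled animals, which did not overlap but did not pass (log2 fold change 0.87 ± 0.243 SE, edgeR adjusted p = 0.174). Cryab, the alpha-B crystallin that guards desmin and actin filaments, had 560.4, 457 and 509 CPM in KO-labelled males, against 289.9, 366 and 326 CPM in Hetz-labelled males, and rose 1.56-fold (log2 fold change 0.64 ± 0.134 SE, edgeR adjusted p = 0.0449). In females Cryab overlapped, at 250, 416 and 305 CPM in KO-labelled animals, against 254, 352 and 243 CPM in Hetz-labelled animals (edgeR adjusted p = 0.658). Its male call was lost with RLE or upper quartile factors, in the fit of all 12 libraries, and without KO240, Hetz204, Hetz245 or Hetz249. Small heat shock proteins are also abundant in muscle fibres. The myofibre markers summed to 110 to 632 CPM in KO-labelled females, against 113 to 373 CPM in Hetz-labelled females. In males they summed to 33.0 to 131 CPM in KO-labelled animals, against 37.3 to 50.8 CPM in Hetz-labelled animals. In females 8 of 8 tested markers had a log2 fold change above 0, with a median of 0.70. In males 6 of 8 were above 0 and 2 below, with a median of 0.51. By edgeR 0 of 8 were called in either sex, and the part of the myofibre markers was not tested.

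None of the other chaperone lists of the cytosol and mitochondrion had a gene called by edgeR in either sex, and DESeq2 called 1, Fkbp5, higher in males. These were 8 tested HSP70 and HSP110 genes, 18 of HSP90 and its cochaperones, 15 J-domain genes, 10 BAG and HSP70 exchange factors, 15 mitochondrial chaperones and proteases, 14 chaperonin and prefoldin subunits and 7 of the HSF family and HSF1 regulators. By unadjusted p under 0.05 the 7 lists held 3 higher and 8 lower genes in females, against 17.9% of all genes in either direction, and 4 higher and 4 lower in males, against 12.4%. Hsf1 had a log2 fold change of -0.13 in females (edgeR adjusted p = 0.614) and -0.17 in males (0.643). Hsp90ab1, the constitutive cytosolic HSP90, had 0.21 in females and -0.12 in males, and Hspa9, the mitochondrial HSP70, had 0.01 in females and -0.16 in males, none of which passed.

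Genes of 2 stress lists and of the leukocyte, satellite cell and Schwann cell marker lists were also called lower in KO-labelled females. Of all genes tested there, 0.983% were called lower. Of 25 immediate early genes, which dissociation is known to raise, 3 fell (Btg2, Ier2 and Dusp1) and none rose, 17 had a log2 fold change below 0 and 8 above 0, and the summed level of the list was 15431 to 15844 CPM in KO-labelled females, against 18368 to 22128 CPM in Hetz-labelled females. In males 0 of 25 were called by edgeR, DESeq2 or limma voom, against 0.157% of all genes called lower by edgeR. At an unadjusted edgeR p under 0.05, 4 were higher and 1 lower, against 12.4% of all genes in either direction. The summed level in males was 19545 to 24626 CPM in KO-labelled animals, against 21707 to 22981 CPM in Hetz-labelled animals. Of 14 chaperones of the endoplasmic reticulum, 1 fell in KO-labelled females (Creld2), and all 14 had a log2 fold change below 0, against 49.5% of all genes. In males 0 of 14 were called by edgeR, with 11 below 0 and 3 above, against 48.3% of all genes below 0. Averaged over the sexes, 1 was called lower (Creld2), against 1.27% of genes, and all 14 were below 0, against 50.6%. The HSP70 of that compartment, Hspa5, had -0.77 in females (edgeR adjusted p = 0.0519), against 0.02 in males. The leukocyte markers summed to 33.2 to 52.5 CPM in KO-labelled females, against 83.3 to 116 CPM in Hetz-labelled females, with 2 of 9 called lower (Cd74 and Lyz2) and none at 0. The 10 satellite cell markers summed to 8334 to 10641 CPM in KO-labelled females, against 12355 to 13792 CPM in Hetz-labelled females, with 1 called lower (Chrdl2). In males Chrdl2 was called lower too (log2 fold change -1.37, edgeR adjusted p = 0.00162). Of 9 tested Schwann cell markers, 1 was called lower in KO-labelled females (Ptprz1). Most of that list went the other way, with 6 log2 fold changes above 0, 3 below and a median of 0.15. The lists themselves were not tested. Their part in the fall of Hspa1a, Hspa1b and Dnajb1 was not tested.

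**Figure D4:**
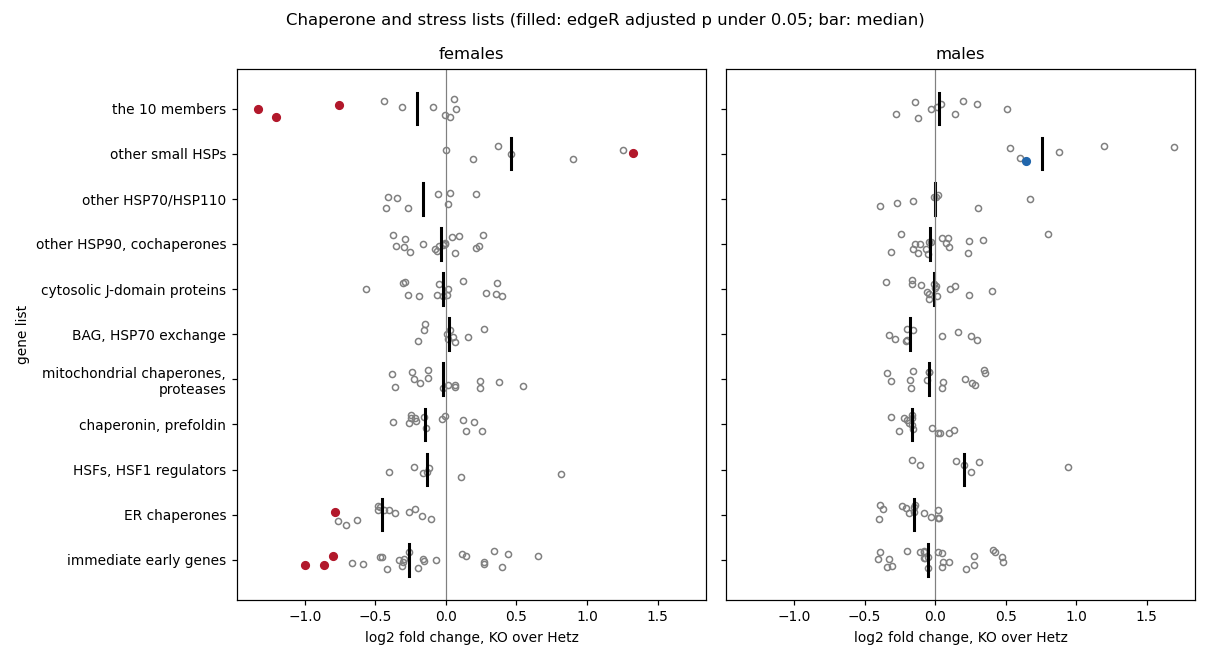
Log2 fold change of KO-labelled over Hetz-labelled libraries (x axes) for tested genes of the 10 heat shock proteins and of 10 related lists (y axis) in females (left) and males (right); filled points have an edgeR adjusted p under 0.05 and bars are list medians. In females the filled points are 3 members, Hspb8, Creld2 and 3 immediate early genes, and in males only Cryab is filled.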

How the data were processed

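The members and lists were chosen with earlier results of these data known. Per the labels, satellite cells were frozen after isolation, cDNA was made by Smart-Seq2, which uses no molecular identifiers, and libraries were built with Tn5. The deposited tables hold whole counts of fragments per gene, made with featureCounts 2.0.0 on Ensembl GRCm38 release 99 without strand, and reads with several places or several genes were not counted, per the file headers. Nothing in the deposited tables is an estimated count, by their headers, and no rounding was needed. STAR, Subread, DESeq2 and mm10 are named per the submitters' processing notes. The tables held 0 columns of other samples.

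Symbols came from GENCODE M21 by Ensembl identifier. Each comparison was fitted on all genes with edgeR 4.0.16 in R 4.3.3 (TMM, filterByExpr with a minimum count of 10, robust quasi-likelihood), with a threshold of 0.05. Comparisons within a sex used 6 libraries and the others all 12 with 4 group means. Log2 CPM used a prior count of 2 for the values of r, and no prior count for the permutations. The named genes were the 10 members, Hsf1, Hspa5, Hsp90ab1, Hspa9, Nqo1 and Keap1, up to 4 called genes of each list by p, and the 5 genes most like the members among those with a mean log2 CPM of at least 3; Pax7, Myf5 and Myod1 were named beside them as defining markers. Fkbp5, Cd74, Lyz2, Chrdl2 and Ptprz1 were named after their values were seen. Alternatives were DESeq2 1.42.0, limma 3.58.1 voom, other size factors, no filter, a fit of all libraries, Hspa1a and Hspa1b summed, and leaving out each library. Fits were tested on simulated data. Sequences came from RefSeq.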

Additional observations from a re-analysis of the deposited data

How the results depend on the processing

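No paired analysis was possible because each animal number in the labels belongs to 1 animal. The count of members called in females was 3 with DESeq2, RLE factors and no filter, 2 with limma voom, upper quartile factors and both HSP70 copies summed, and 1 in the fit of all 12 libraries. It ran from 0 to 3 when 1 library was left out. In males it was 0 under every alternative run. Averaged over the sexes it was 1 (Hspa8) with DESeq2 and with no filter, and 0 to 1 without 1 library. For the female change minus the male change it was 1 with DESeq2 (Hspa1b), 2 with no filter (Hspa1b and Dnajb1) and 0 without any 1 library. For female against male it was 4 to 6 in KO-labelled and 0 to 3 in Hetz-labelled libraries without 1 library. All genes called in females were 723 with DESeq2 and 1000 with no filter, against 319, and in males 280 and 375, against 115.

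The signs of uncalled members turned only when 1 library was left out. In females the log2 fold change then ran from -0.20 to 0.34 for Hspb1, -0.12 to 0.14 for Hsp90aa1, -0.16 to 0.025 for Hspd1, -0.0084 to 0.16 for Hspe1 and -0.047 to 0.22 for Bag3. In males it ran from -0.35 to 0.50 for Hspa1a, -0.00040 to 0.76 for Hspa1b, -0.27 to 0.54 for Hspb1, -0.083 to 0.32 for Dnajb1, -0.23 to 0.10 for Hsph1, -0.17 to 0.19 for Hspe1 and -0.057 to 0.14 for Bag3. The cause was not tested. Each group has 3 animals, which limits precision, and the share of the spread that comes from depth was not tested.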
